A study of Mus musculus with 12 samples.

Results

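A set of 7 genes that code for cell surface and signalling proteins was followed through all 12 RNA-Seq libraries of SMAD4-deficient mouse tumor organoids: *Fcer2a*, *Antxr2*, *Pcp4*, *Sele*, *Pmp22*, *Havcr2* and *Aplnr*. These 7 of the 24906 genes listed in each expression table were chosen by their measured FPKM difference between libraries with and without re-expressed SMAD4. That difference is therefore a description of the choice, is given without a p-value, and supports nothing by itself. The question addressed was whether the level of each gene followed the *Smad4* level of the same library.

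All 12 libraries were labelled with the same genotype, *Smad4*KO; BRAFV600E/+; pINDUCER-SMAD4, and came from the small intestine. The organoids were grown from macroscopic tumors of mice in which a tamoxifen-inducible Cre under the Villin promoter acts in the intestinal epithelium, and a lentiviral construct, pINDUCER-SMAD4, expresses SMAD4 when doxycycline (dox) is given. Dox was given at 4 µg/mL and organoids were in culture for 48 h before collection, either in BME, a basement membrane extract in which organoids grow in 3D, or on tissue culture plastic. The BME set held 3 untreated libraries, from lines 682, 700 and 889, and 2 with dox, from lines 700 and 889. A further BME library, from line 682, is labelled as dox at 4 µg/mL with the word mock. The plastic set held an untreated and a dox library from each of lines 560, 700 and 889. The title and genotype label of the mock library read as those of an induced library, and it was counted as a control, as in the study. The study's methods also name a mock plasmid for transduction, so whether this library carries the construct is not known. The labels do not state separate cultures, so p-values given below for other genes measure only the spread between these libraries. Levels are FPKM, fragments per kilobase of transcript scaled to library size, and each environment was normalized in its own table. Levels were therefore never tested across BME and plastic. Changes are differences of log2(FPKM + 1) between the treated and the untreated library of the same line, a scale that understates the change of low genes. The depth of the libraries, read from the steps between low values, lay between 0.832 and 1.09 of the mean of their table. Epithelial markers were high as a sum in every library, with a summed FPKM over 11 genes between 4349 and 17490. Most of it came from *Krt8*, *Krt18* and *Krt19*, while *Cdx1* was at 0 in 8 of the 12 libraries and *Krt20* fell to 0.592 FPKM. In bulk RNA, fewer cells of a type and less RNA per cell cannot be told apart.

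SMAD4 is the shared partner of the receptor-activated SMADs in the TGFβ and BMP pathways and enters the nucleus with them to bind DNA. SMAD proteins recognise short motifs such as CAGAC and GC-rich pentamers, usually together with other factors at promoters and enhancers. The proteins coded by these genes are best known outside the gut epithelium. *Fcer2a* codes for CD23, the low-affinity IgE receptor of B cells, which gut epithelium can also use to carry IgE. *Sele* codes for E-selectin, an adhesion receptor of activated endothelium that captures leukocytes. *Havcr2* codes for TIM-3, an inhibitory receptor of T cells and myeloid cells. *Aplnr* codes for the G protein-coupled receptor of apelin, *Antxr2* for an extracellular matrix and anthrax toxin receptor, *Pmp22* for a small tetraspan of myelin and epithelial junctions, and *Pcp4* for PEP-19, a small protein that tunes calcium binding by calmodulin.

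In the NCBIM37 (mm9) annotation all 7 are protein-coding genes. *Fcer2a* lies at chr8:3681737-3694174 on the minus strand and *Antxr2* at chr5:98313707-98459981 on the minus strand. The other five lie on the plus strand, *Pcp4* at chr16:96689213-96747400, *Sele* at chr1:165978365-165987808, *Pmp22* at chr11:62942484-62973049, *Havcr2* at chr11:46268437-46294757 and *Aplnr* at chr2:84976517-84980079. *Pmp22* and *Havcr2* share a chromosome but are not neighbours.

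RefSeq promoter windows (build GRCm38.p6) were matched by symbol for 6 of the 7 genes and gave 11 windows of 250 bases before an annotated start, 3 for *Fcer2a*, 4 for *Pmp22* and 1 for each other matched gene. No window was matched for *Aplnr*. Windows of 4 genes are shown to set the pair of genes at 159 FPKM or more in every plastic dox library, *Fcer2a* and *Antxr2*, beside *Sele* and *Havcr2*, which were under 10 FPKM in line 700. Each runs 5′ to 3′ toward the start in lower case, and capitals mark the SMAD motif CAGAC, the GC-rich pentamers GGCGC and likewise GGCCG, the AP-1 motif TGACTCA and the TATA motif TATAAA, each searched on both strands with overlapping matches counted. They are, in order, *Fcer2a* at its most upstream start (chr8:3694175-3694424, minus strand) and its most downstream start (chr8:3690391-3690640, minus strand), *Antxr2* (chr5:98031018-98031267, minus strand), *Sele* (chr1:164047984-164048233, plus strand) and *Havcr2* (chr11:46454681-46454930, plus strand).
Fcer2a upstream start: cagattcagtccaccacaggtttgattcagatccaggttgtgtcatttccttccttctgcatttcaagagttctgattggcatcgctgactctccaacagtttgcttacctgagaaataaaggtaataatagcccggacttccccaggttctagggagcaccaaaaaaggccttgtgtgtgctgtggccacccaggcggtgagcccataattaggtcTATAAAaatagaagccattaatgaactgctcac
Fcer2a downstream start: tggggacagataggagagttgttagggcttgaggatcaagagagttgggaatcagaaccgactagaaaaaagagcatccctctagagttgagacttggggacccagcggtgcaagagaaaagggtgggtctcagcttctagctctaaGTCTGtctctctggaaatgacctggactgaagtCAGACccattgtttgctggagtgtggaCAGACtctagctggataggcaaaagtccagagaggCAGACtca
Antxr2: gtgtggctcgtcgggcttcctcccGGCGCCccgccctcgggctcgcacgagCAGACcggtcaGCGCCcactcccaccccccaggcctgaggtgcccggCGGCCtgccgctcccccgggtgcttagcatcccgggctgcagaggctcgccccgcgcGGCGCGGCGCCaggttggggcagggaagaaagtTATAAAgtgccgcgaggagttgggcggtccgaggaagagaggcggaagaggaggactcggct
Sele: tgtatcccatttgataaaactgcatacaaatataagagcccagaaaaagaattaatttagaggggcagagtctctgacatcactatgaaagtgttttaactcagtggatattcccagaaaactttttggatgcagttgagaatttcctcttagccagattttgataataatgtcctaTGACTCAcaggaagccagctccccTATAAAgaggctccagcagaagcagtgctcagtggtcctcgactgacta
Havcr2: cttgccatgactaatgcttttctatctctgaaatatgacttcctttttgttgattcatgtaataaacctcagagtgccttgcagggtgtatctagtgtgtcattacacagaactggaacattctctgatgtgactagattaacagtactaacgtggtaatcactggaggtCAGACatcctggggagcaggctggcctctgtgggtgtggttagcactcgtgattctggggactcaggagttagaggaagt

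The windows differed in base composition and in the motifs they hold. The downstream *Fcer2a* window holds CAGAC or its reverse complement 4 times, at 103, 70, 43 and 8 bases before the start, and the upstream one holds TATAAA at 33 bases. The *Antxr2* window is a CpG-rich promoter with 28 CG dinucleotides and 72.8% GC, and it holds 7 matches to the GC-rich pentamers, of which some overlap. The *Sele* window has 1 CG, with TGACTCA at 73 and TATAAA at 49 bases before the start. The *Havcr2* window has 2 CG and CAGAC at 80 bases. Over 32851 RefSeq windows of the same length the median was 6 CG. CAGAC stands in 42.2% of those windows and in 6 of the 11 windows here, which belong to 4 of the 6 matched genes. The GC-rich pentamers stand in 43.4% of all windows and in 4 of the 11, from *Pmp22* and *Antxr2*. TGACTCA stands in 4.46% of all windows and in 2 of the 11, from *Fcer2a* and *Sele*. TATAAA stands in 12.4% of all windows and in 3 of the 11, from *Fcer2a*, *Sele* and *Antxr2*. The *Pcp4* window holds none of these motifs. Matches describe the letters of these windows only and say nothing about binding.

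*Smad4* was higher in each dox library than in the untreated library of its line. In BME the untreated libraries held 8.88 (line 682), 6.53 (line 700) and 6.23 FPKM (line 889), the mock library 10.3 FPKM, and the dox libraries 17.2 (line 700) and 27.3 FPKM (line 889). On plastic the untreated libraries held 1.54 (line 560), 2.99 (line 700) and 4.76 FPKM (line 889), and the dox libraries 73.6, 18.1 and 48.9 FPKM in the same order. Line 700 thus had the least *Smad4* of the dox libraries in both tables, and line 560 the most on plastic. The tables give 1 value per gene and do not separate the transgene from the endogenous transcript. The species of the SMAD4 cDNA is not given in the labels, so how fully the *Smad4* value counts the transgene is unknown, and it is used here only as listed.

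*Fcer2a* and *Antxr2* reached high levels with dox in each of the 3 plastic lines. *Fcer2a* was at 1.72, 0.638 and 0.0981 FPKM in the untreated plastic libraries of lines 560, 700 and 889 and at 425, 298 and 159 FPKM with dox. The groups did not overlap, and the changes were 7.29, 7.51 and 7.19 on the log2(FPKM + 1) scale (mean 7.33 ± 0.17 SD, n = 3 lines). The narrow spread belongs to this scale, on which 1 is added to untreated values near or under 1 FPKM. As plain ratios of FPKM the differences were 248-fold, 468-fold and 1624-fold, and the mean change was 8.73 with a pseudocount of 0.1 and 9.11 with one of 0.01. In BME, untreated *Fcer2a* was at 0.612 to 0.670 FPKM in the 3 lines and reached 3.64 FPKM with dox in line 700 and 148 FPKM in line 889, 40.7-fold apart. The mock library stood at 6.61 FPKM, 10.8-fold its untreated partner and above the dox library of line 700, so the BME dox and control libraries overlapped. *Fcer2a* was the 1 gene of the 7 with a change over 1 in the mock pair (2.24), where 1.29% of all tested genes were higher by over 1.

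*Antxr2* was the only one of the 7 with a level above 5 FPKM in every untreated library. Its untreated plastic level was 34.6, 55.0 and 44.6 FPKM in lines 560, 700 and 889, against 246, 415 and 379 FPKM with dox. These are folds of 7.13, 7.54 and 8.50, with a mean change of 2.92 ± 0.13 (SD, n = 3 lines), the smallest spread among the 7. In BME the level went from 12.7 to 43.9 FPKM in line 700, a 3.45-fold difference, and from 11.4 to 92.0 FPKM in line 889, an 8.07-fold difference. The mock library (12.4 FPKM) was 1.63-fold its partner (7.62 FPKM) but within the range of the untreated libraries.

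The other five genes were lowest in line 700 among the dox libraries of both tables. *Pcp4* held the highest level of the 7 in a single library. Its untreated plastic values were 3.19, 0.306 and 0.386 FPKM in lines 560, 700 and 889, and its dox values 1240, 38.6 and 2808 FPKM. In BME it was listed at 0 in the dox library of line 700 and in the mock library, at 0.270 to 0.736 FPKM in the untreated libraries, and at 1046 FPKM in the dox library of line 889. Where the steps of the table could be read as whole reads, these BME values corresponded to 0 to 3 reads in 5 libraries and 4160 reads in the sixth. A value of 0 allows up to 3 reads, or 0.906 FPKM, in the dox library of line 700, so the negative change there (-0.34) lies within what these few reads can resolve.

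*Sele* was listed at 0 in 5 of the 6 BME libraries and at 17.1 FPKM, about 780 reads, in the dox library of line 889. On plastic it was at 0.355, 0.0177 and 0.0166 FPKM untreated in lines 560, 700 and 889, which is 21, 1 and 1 reads. With dox it was at 93.3, 7.12 and 263 FPKM, or 5549, 346 and 11998 reads. The plastic groups did not overlap, and the dox libraries differed 36.9-fold between lines 889 and 700.

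*Pmp22* had the widest spread of changes of the 7 on plastic, where it was at 1.67, 11.1 and 3.28 FPKM untreated in lines 560, 700 and 889 and at 339, 15.9 and 1333 FPKM with dox. The changes were 6.99, 0.49 and 8.28, so the line with the highest untreated level had the smallest change. In BME the untreated libraries held 0.150 to 0.521 FPKM and the mock library 0.232 FPKM, against 1.67 FPKM with dox in line 700 and 229 FPKM in line 889.

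*Havcr2* and *Aplnr* were low without dox, and their untreated values rest on few reads. *Havcr2* was at 0.218, 0.305 and 0.536 FPKM untreated on plastic (12, 16 and 30 reads in lines 560, 700 and 889) and at 15.6, 3.03 and 76.7 FPKM with dox (863, 137 and 3259 reads). In BME it had 0 to 3 reads in the 4 control libraries, 7 reads in the dox library of line 700 and 123 reads (2.90 FPKM) in that of line 889. *Aplnr* had 3, 1 and 2 reads untreated on plastic and 353 (4.78 FPKM), 9 (0.149 FPKM) and 241 reads (4.25 FPKM) with dox in lines 560, 700 and 889. In BME it had 0 to 4 reads in the control libraries, 5 in the dox library of line 700 and 282 (4.99 FPKM) in that of line 889. With 5 reads against 4 in its untreated partner, *Aplnr* in BME line 700 was not distinguishable from the control at this depth. Of the 7 genes, *Aplnr* was the only one whose dox level in line 889 in BME exceeded that in the plastic table, although the tables were normalized separately.

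**Figure D1:**
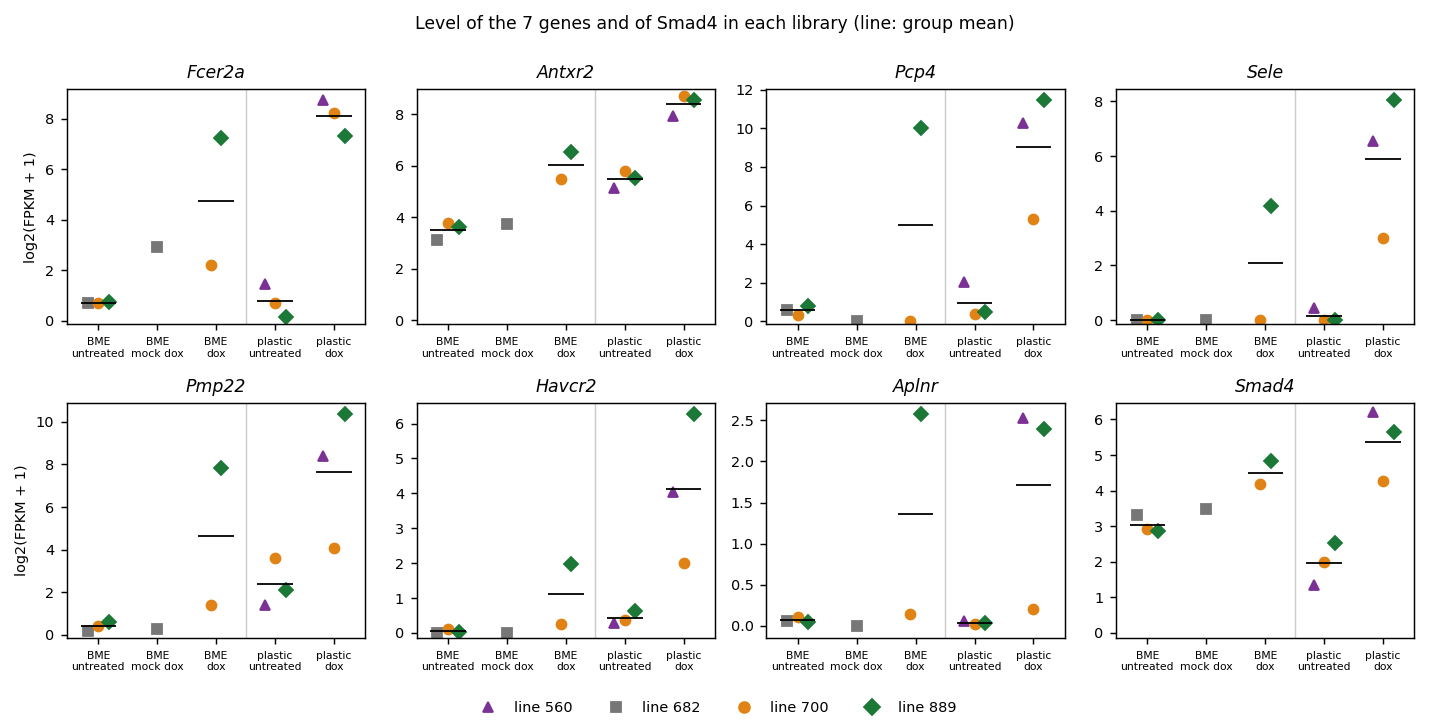
Level of the 7 genes and of Smad4 as log2(FPKM + 1) in each of the 12 libraries, by group, with a symbol per organoid line and a black line at the mean of each group with more than 1 library. Fcer2a and Antxr2 sit high in all 3 plastic dox libraries, while the other five are lowest in line 700 among them, as Pcp4 at 38.6 FPKM against 1240 and 2808.

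Counted over the 7 genes, every plastic dox library was above every plastic untreated library for 7 of 7, beside 7.87% of the 12333 genes tested. In BME the same held for 4 of 7 (*Pmp22*, *Antxr2*, *Havcr2* and *Aplnr*), beside 6.33% of 12996 genes. Without the mock library it held for 5 of 7, beside 8.13%, and without the dox library of line 700 for 7 of 7, beside 21.1%. A change over 1 in every plastic pair was found in 5 of 7, the exceptions being *Pmp22* and *Aplnr* in line 700, beside 0.876% of genes. In BME it was found in both pairs for 2 of 7, *Fcer2a* and *Antxr2*, beside 0.523%. These shares come from the contrast that chose the genes and nothing is read from them.

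Between lines the picture was uneven. In line 889, 7 of 7 changed by over 1 in BME (background 2.49%) and on plastic (7.32%), and in line 560 on plastic 7 of 7 (10.0%). In line 700 the counts were 2 of 7 in BME (1.75%) and 5 of 7 on plastic (3.96%). The median change over the 7 genes was 0.16 in line 700 and 4.18 in line 889 in BME, 0 in the mock pair, and 6.12, 2.89 and 7.19 in lines 560, 700 and 889 on plastic. The median over all tested genes was within 0.01 of 0 in each of these pairs.

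**Figure D2:**
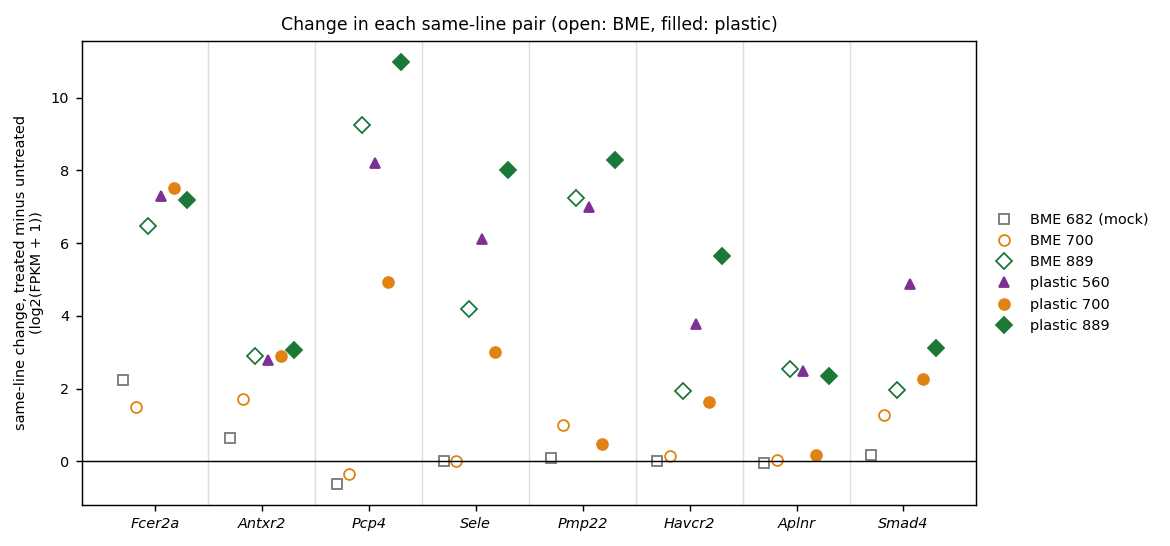
Change of each gene between the treated and the untreated library of the same line, as a difference of log2(FPKM + 1), with open symbols for BME and filled symbols for plastic. On this scale the 3 plastic changes of Fcer2a (7.19 to 7.51) and Antxr2 (2.80 to 3.06) lie close together, whereas those of Pmp22 run from 0.49 to 8.28, and the mock pair lies near 0 except for Fcer2a (2.24) and to a lesser degree Antxr2 (0.64) and Pcp4 (-0.61).

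The comparison with *Smad4* was made as an order, since 5 dox libraries from 3 lines in 2 separately normalized tables are too few independent samples for a correlation. In BME the dox library with more *Smad4*, line 889, had more of each gene (7 of 7), where 49.9% of all tested genes were higher in that library. This is a single pair of libraries, and *Pcp4*, *Sele*, *Havcr2* and *Aplnr* reached the level for testing in BME only through the library of line 889, so nothing is read from the count. *Smad4* was 1.58-fold higher there than in line 700, while *Antxr2* was 2.09-fold, *Havcr2* 14.6-fold, *Fcer2a* 40.7-fold and *Pmp22* 137-fold higher. The mock library had less *Smad4* (10.3 FPKM) than either BME dox library. With it added, 18 of 21 gene and library pairs in BME lay in the *Smad4* order, 3 of 3 for *Pmp22*, *Antxr2*, *Havcr2* and *Aplnr*. Most of these pairs set a dox library against the mock library, a control, and so repeat the difference that chose the genes. Of the 3 that did not, *Fcer2a* was higher in the mock library than with dox in line 700, at 6.61 against 3.64 FPKM, and *Pcp4* and *Sele* were listed at 0 in both.

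On plastic there were 3 pairs of dox libraries. In 13 of 21 gene and library pairs the library with more *Smad4* also had more of the gene, and over all tested genes the share was 49.1%. *Sele*, *Havcr2* and *Aplnr* reached the level for testing on plastic only through dox libraries, *Aplnr* only through those of lines 560 and 889. Nothing is therefore read from the count. *Aplnr* followed *Smad4* in 3 of 3 library pairs. *Fcer2a*, *Pcp4*, *Sele*, *Pmp22* and *Havcr2* followed in 2 of 3, and *Antxr2* in 0 of 3. Line 700, with the least *Smad4*, was lowest for 5 of 7 genes. Line 560 had the most *Smad4* (73.6 FPKM) but was highest for only 2 of 7, *Fcer2a* and *Aplnr*, and line 889 (48.9 FPKM) was highest for 4, *Pcp4*, *Sele*, *Pmp22* and *Havcr2*. *Antxr2* was highest in line 700 and lowest in line 560. With single libraries per line and environment, *Smad4* level and line cannot be told apart.

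Line 700 gave the closest match of *Smad4* between the environments, 17.2 FPKM in BME and 18.1 FPKM on plastic with dox. Side by side and without a test, since the tables were normalized separately, *Fcer2a* was at 3.64 FPKM in BME and 298 FPKM on plastic, *Antxr2* at 43.9 and 415, *Pcp4* at 0 and 38.6, and *Pmp22* at 1.67 and 15.9. *Sele* was at 0 and 7.12 FPKM, *Havcr2* at 0.199 and 3.03, and *Aplnr* at 0.106 and 0.149. The untreated libraries of line 700 already differed in the same direction for *Pmp22* (0.336 and 11.1 FPKM), *Antxr2* (12.7 and 55.0 FPKM) and *Havcr2* (0.0761 and 0.305 FPKM), and the *Aplnr* values rest on 5 and 9 reads.

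**Figure D3:**
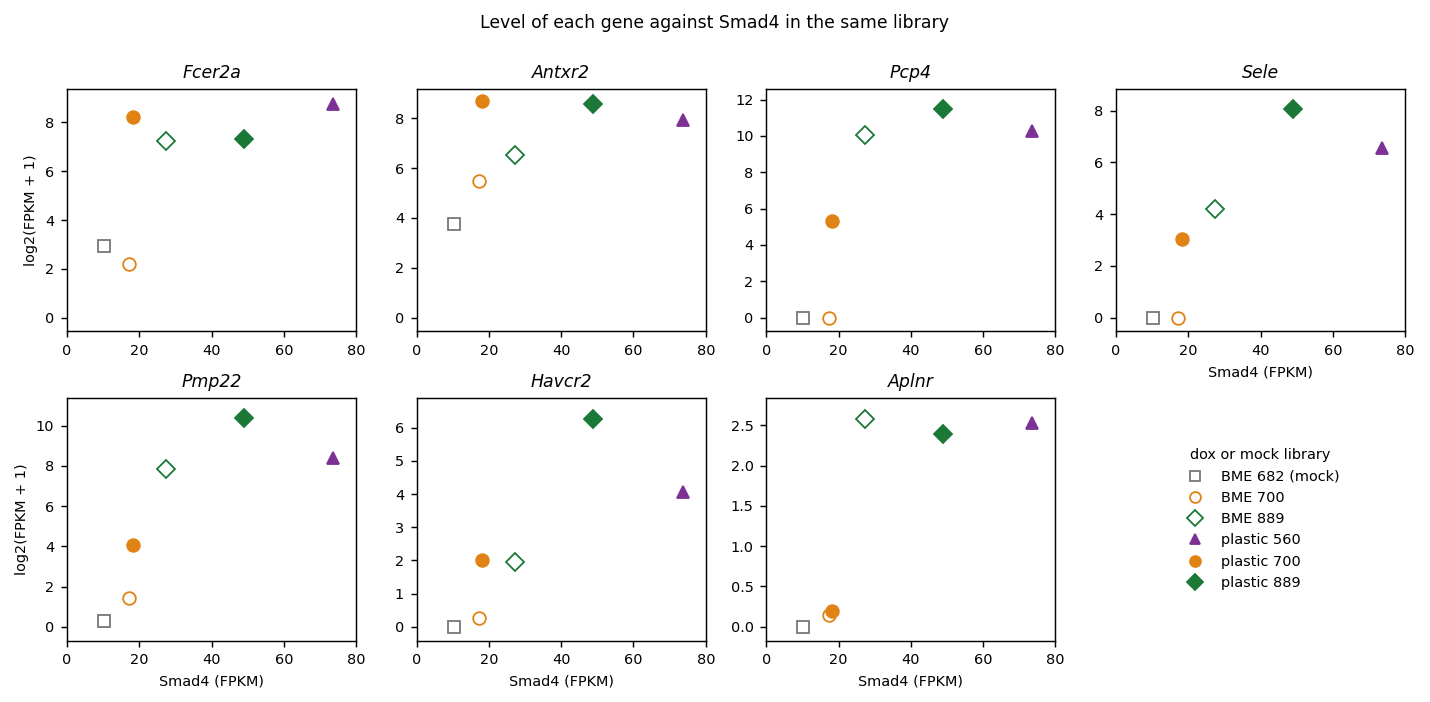
Level of each gene as log2(FPKM + 1) against the Smad4 level in FPKM of the same library, for the 5 dox libraries and the mock library, with open symbols for BME and filled symbols for plastic. On plastic the library with the most Smad4 (line 560, 73.6 FPKM) is not the highest for 5 of the 7 genes, and the points of line 700, at 17.2 and 18.1 FPKM of Smad4, lie apart between BME and plastic for every gene but Aplnr.

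None of the measured relatives and partners of these proteins passed the test. Over 17 fixed lists of families, partners and cell type markers, with the 7 genes left out, 174 distinct genes were listed, of which 87 were tested in BME and 75 on plastic. None was called in either environment by limma (adjusted p under 0.05 and absolute change over 1), where 0.0231% of all genes were called in BME and 0.0324% on plastic. With so few calls in all, any set of this size would rarely hold a called gene, and nothing is read from this. With p under 0.05 before adjustment and a change over 1, there were 6 of 87 in BME and 5 of 75 on plastic, beside 0.954% and 3.64% of all tested genes. Most of these were SMAD targets or epithelial markers (5 in BME and 4 on plastic). The relatives and partners among them were *Emp3* in BME (1.57 ± 0.65 SE, limma adjusted p = 0.96) and *Cd44*, coding for an E-selectin ligand carrier, on plastic (1.37 ± 0.42, adjusted p = 0.50), both named after their values were seen. In BME *Cd44* had the opposite sign (-0.69 ± 0.38, limma adjusted p = 0.96). *Selp*, coding for P-selectin, reached at most 1.03 FPKM, while the selectin ligand carrier *Cd24a* was abundant (mean 466 FPKM in BME and 242 FPKM on plastic). *Adam10*, the protease that sheds CD23, changed by 0.35 ± 0.24 (SE) in BME and 0.67 ± 0.35 on plastic, with limma adjusted p = 0.96 and 0.67. The high-affinity IgE receptor gene *Fcer1a* was listed at 0 in all 12 libraries.

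Of the TIM family, *Havcr1*, *Timd2* and *Timd4* stayed at or under 0.131 FPKM in every library. *Lgals9*, which codes for the TIM-3 ligand galectin-9, was at a mean of 152 FPKM in BME and 155 FPKM on plastic and changed by -0.17 ± 0.23 (SE, limma adjusted p = 0.89) on plastic. *Cd274*, coding for the checkpoint ligand PD-L1, was lower by over 1 in both BME pairs (limma change -0.998 ± 0.34, adjusted p = 0.96), and the immune receptor gene *Tigit* in the 3 plastic pairs (-1.39 ± 0.71, adjusted p = 0.66). The apelin receptor ligand genes were low, *Apln* at 0.441 to 2.37 FPKM and *Apela* at no more than 0.114 FPKM. *Gnai2*, a G protein subunit through which the apelin receptor signals, was abundant in both tables (mean 252 and 490 FPKM) and changed by 0.46 ± 0.15 in BME (limma adjusted p = 0.96).

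*Antxr1*, the paralog of *Antxr2*, reached at most 2.03 FPKM. *Lrp5* and *Col4a1*, the most abundant partners in their list, changed by 0.12 ± 0.41 in BME (limma adjusted p = 0.98) and by -0.68 ± 0.44 on plastic (adjusted p = 0.75). Among the tetraspan relatives of *Pmp22*, *Emp1* was at 51.3 to 808 FPKM and *Emp2* at 64.8 to 176 FPKM over the 12 libraries, *Emp3* at 4.16 to 47.4 FPKM, and *Lim2* and *Tmem47* at or under 0.0749 FPKM. *Perp*, the most abundant of that list, changed by 1.09 ± 0.70 on plastic (limma adjusted p = 0.75). The calmodulin gene *Calm2* was at a mean of 327 and 435 FPKM and changed by 0.31 ± 0.19 and 0.32 ± 0.28 (limma adjusted p = 0.96 and 0.82). Among myelin genes *Mag* was listed at 0 throughout, and *Mbp*, at 15.1 to 39.5 FPKM over the 12 libraries, changed by 0.21 ± 0.37 on plastic (limma adjusted p = 0.93).

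Known SMAD target genes were followed in the same way. *Id1* and *Id3*, BMP-responsive inhibitors of helix-loop-helix factors, were higher by over 1 in each of the 5 dox pairs. A change over 1 the same way in every pair of a table was found in 0.862% of the genes tested in BME and 1.29% on plastic. The *Id3* changes were 4.19 and 3.01 in BME lines 700 and 889, 0.41 in the mock pair, and 3.57, 2.80 and 5.35 on plastic lines 560, 700 and 889. By limma the *Id3* difference was 4.09 ± 0.43 (SE) in BME, with adjusted p = 0.16, and 3.90 ± 0.79 on plastic, with adjusted p = 0.28, so neither passed the threshold. In BME, *Id3* (30.8 FPKM) and *Id1* (104 FPKM) were higher with dox in line 700 than in line 889 (22.7 and 47.8 FPKM). On plastic they were lowest with dox in line 700, *Id1* at 67.7, 12.9 and 55.8 FPKM and *Id3* at 43.0, 7.67 and 56.3 FPKM in lines 560, 700 and 889. *Tgif1*, a SMAD corepressor gene and the most abundant of the list in BME, changed by -0.17 ± 0.13 there (adjusted p = 0.96).

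Several defining markers of endothelium, B cells and T cells were at or near 0, while other genes of the marker lists were not. *Pecam1*, *Cdh5* and *Cldn5* reached at most 0.0253, 0.157 and 0.0392 FPKM in any library, whereas *Esam* was at 2.04 to 11.9 FPKM and *Egfl7* at 1.33 to 11.1 FPKM. The summed level of the 12 endothelial markers, led by *Egfl7* in BME and *Esam* on plastic, was higher with dox in 5 of 5 same-line pairs. It was 14.7 against 13.6 FPKM and 22.0 against 16.8 FPKM in BME lines 700 and 889, and 14.2 against 13.9, 5.18 against 3.93 and 7.65 against 4.55 FPKM on plastic lines 560, 700 and 889. The genes behind this differed by line. In plastic line 560 *Esam* was lower with dox (6.35 against 9.14 FPKM), while the angiopoietin and VEGF receptor genes *Tek* (2.54 against 0.889 FPKM) and *Flt1* (2.59 against 0.738 FPKM) were higher. In BME line 889, where *Sele* and *Aplnr* were high, *Tek* was at 3.62 against 1.54 FPKM and *Flt1* at 1.41 against 0.690 FPKM. *Vwf* was lower with dox in that pair (0.486 against 1.03 FPKM). In plastic line 889, where *Sele* was highest, *Tek* was lower with dox (0.151 against 0.201 FPKM) and *Flt1* higher (0.757 against 0.203 FPKM). *Tek*, *Flt1* and *Vwf* were named after their values were seen. The part of these markers in the *Sele* and *Aplnr* values was not tested. *Ms4a1* of B cells stayed at or under 0.0688 FPKM, and 8 B cell markers, led by *Cd79b* in BME and *Cd79a* on plastic, summed to 0.0426 to 0.434 FPKM with dox on plastic, where *Fcer2a* was at 159 to 425 FPKM. The 8 T and NK cell markers, led by *Cd8a*, summed to at most 1.23 FPKM in any library, and *Cd3e* reached 0.0566 FPKM. The pan-leukocyte marker *Ptprc* reached 0.0958 FPKM and *Adgre1* of macrophages was listed at 0 throughout. The myeloid sum, led by *Cd14*, was higher with dox in 3 of 5 pairs. It was 65.0 against 23.5 FPKM in plastic line 889, where *Havcr2* was highest, with *Cd68* at 38.7 against 2.70 and *Cd14* at 25.7 against 19.8 FPKM. *Csf1r* (0.470 against 0.860 FPKM) and *Itgam* (0.0798 against 0.121 FPKM) were lower with dox in that pair. In plastic line 560, where *Havcr2* was also higher with dox, *Cd68* was lower (12.5 against 15.1 FPKM). The part of these markers in the *Havcr2* values was not tested. Fibroblast and smooth muscle markers, led by *Col1a1* in BME and *Pdgfra* on plastic, summed to at most 7.44 FPKM, higher with dox in 1 of 5 pairs. Neuron and glia markers, led by *Gfap* in BME and *Syt1* on plastic, summed to at most 4.42 FPKM, higher with dox in 4 of 5 pairs. *Gfap* was higher in each dox pair, most in BME line 700 (3.65 against 0.0505 FPKM), and also in the mock pair (1.92 against 0.0522 FPKM).

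The epithelial and M cell lists are given beside these. The epithelial keratin genes *Krt8* and *Krt18* changed by 1.13 ± 0.22 and 0.91 ± 0.25 (SE) in BME, with limma adjusted p = 0.96 for both. Of the M cell markers, *Gp2* reached 0.0402 FPKM and *Anxa5* changed by 0.05 ± 0.21 in BME (limma adjusted p = 0.99). *Ccl9* was lower by over 1 in both BME dox pairs (-1.13 ± 0.56, limma adjusted p = 0.96). It was lower by more in the mock pair (-1.76), and changed by -1.32, -0.10 and 0.55 on plastic lines 560, 700 and 889. *Ccl20*, the chemokine gene that led the list on plastic, changed by 5.02, -2.35 and 6.50 in lines 560, 700 and 889 and by 0.71 and 5.15 in BME lines 700 and 889. Its limma difference on plastic was 3.05 ± 1.69 (adjusted p = 0.69). Like *Pcp4* and *Sele*, it was lowest in line 700 among the dox libraries of both tables.

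**Figure D4:**
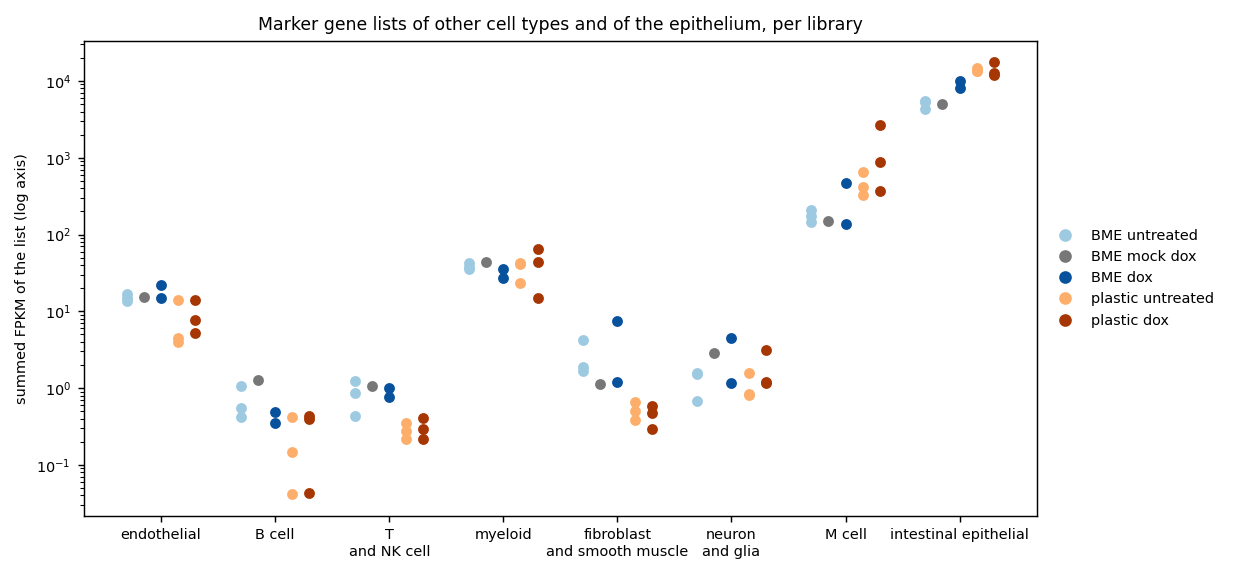
Summed FPKM of fixed marker lists in each library on a log axis, for other cell types and for the intestinal epithelium, with the groups side by side. B, T and NK cell lists stay at or under 1.28 FPKM and the endothelial list at or under 22.0 FPKM in every library, while epithelial markers sum to 4349 to 17490 FPKM.

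Over the 12 libraries, with each gene centred on its mean in its own table, the 7 genes correlated with each other at Pearson r from 0.72 (*Antxr2* and *Aplnr*) to 0.97. Within *Pcp4*, *Sele*, *Pmp22*, *Havcr2* and *Aplnr* the 10 pairs ran from 0.87 to 0.97, and the 10 pairs between these and *Fcer2a* or *Antxr2* from 0.72 to 0.88. *Fcer2a* and *Antxr2* correlated at 0.91. The libraries share lines and the dox contrast, by which the genes were chosen, so these values are a description. Among 11977 genes tested in both tables, those most like the mean of the 7 were *Rab35* (r = 0.99), *Slc35f6* (0.98), *Defb7* (0.98), *Steap3* (0.98) and *Rps6kc1* (0.97), likewise over 12 libraries.

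*Rab35*, coding for a small GTPase of endocytic recycling, is also the gene nearest to *Pmp22* (r = 0.98). It was at 36.6 to 42.2 FPKM in the untreated BME libraries, 42.7 and 217 FPKM with dox in BME lines 700 and 889, and 273, 105 and 391 FPKM with dox on plastic lines 560, 700 and 889, against 52.7 to 57.1 FPKM untreated. *Defb7*, a beta-defensin gene, was the nearest to *Pcp4* (r = 0.99). It was listed at 0 in the 7 control libraries and in dox line 700 in BME, and reached 59.4 FPKM with dox in BME line 889 and 25.1, 2.98 and 46.2 FPKM with dox in plastic lines 560, 700 and 889. *Steap3*, coding for a ferrireductase, was nearest to *Sele* (r = 0.99), *Astl* to *Aplnr* (0.99) and *C430042M11Rik* to *Havcr2* (0.98). The genes nearest to the other pair were *Ncstn* for *Fcer2a* (0.94), a gamma-secretase subunit gene whose plastic changes were 0.61, 0.60 and 0.91, and the adhesion receptor gene *Adgre5* for *Antxr2* (0.95), with plastic changes of 1.48, 2.72 and 1.80.

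**Figure D5:**
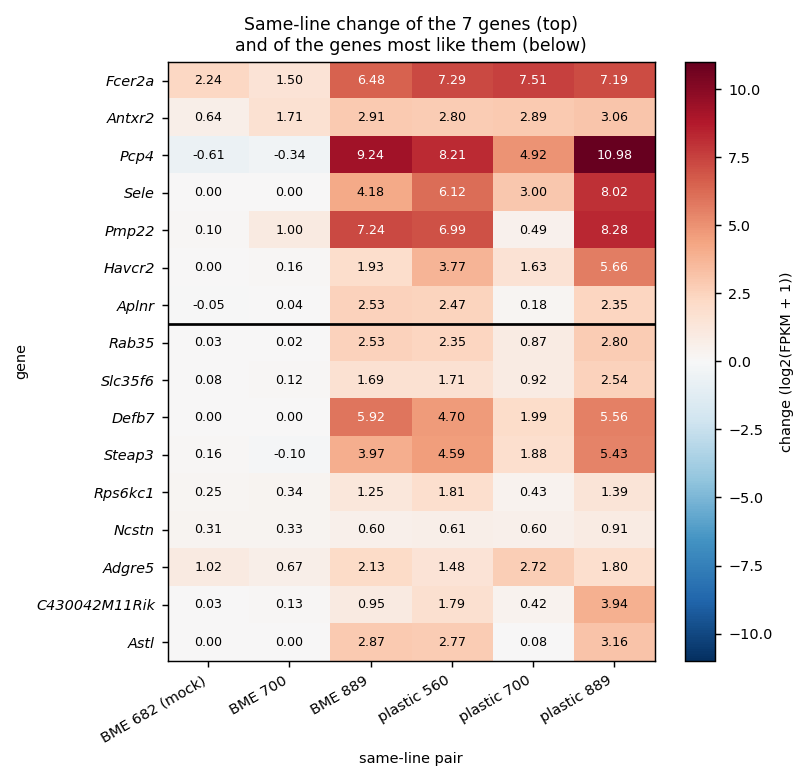
Same-line change, as a difference of log2(FPKM + 1), of the 7 genes (above the line) and of the 9 genes most like them (below), in the mock pair and the 5 dox pairs. Defb7, Steap3 and Astl show values near 0 in BME line 700 and between 2.77 and 5.92 in BME line 889 and plastic lines 560 and 889, and Sele is likewise at 0 in BME line 700.

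Genes next to the 7 in the genome were looked at because position had no part in the choice. Of the 3 nearest protein-coding genes on each side, 42 in all, 41 were in the tables and 16 were tested in each environment, with 0 called by limma. So few genes were called over all genes (0.0231% in BME and 0.0324% on plastic) that nothing is read from this. Before adjustment, p was under 0.05 with a change over 1 for 1 of 16 in BME and 2 of 16 on plastic, beside 0.954% and 3.64% of all tested genes. These were *Igsf5* near *Pcp4* (1.03 ± 0.24 in BME and 1.22 ± 0.36 on plastic, SE, limma adjusted p = 0.96 and 0.49) and *Prdm8* next to *Antxr2* on plastic (2.08 ± 0.30, adjusted p = 0.15), both named after their values were seen. *Prdm8* was at 0.959, 1.17 and 1.81 FPKM untreated in plastic lines 560, 700 and 889 and at 5.77, 10.4 and 10.8 FPKM with dox. It was the 1 tested neighbour with a change over 1 in every plastic pair, where 0.876% of genes had one. The median change of the tested neighbours was 0.13 in BME and 0.35 on plastic, against -0.01 and 0.01 over all tested genes. *Selp*, a neighbour of *Sele*, was below the level for testing.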

How the data were processed

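Libraries were grouped by their labels, and libraries of a line were paired by the line number. Same-line libraries deviated together (correlation of deviations from the group means 0.247 to 0.660), and the pairing comes from the shared organoid line. FPKM values were made and deposited by the authors, 1 table per environment. The submitters' processing notes name kallisto, DESeq2 and mm9. Versions and the annotation are not given in the sources used here. The authors' comparison tables (mean normalized count, log2 fold change and its standard error, Wald statistic, p-value and adjusted p-value, 12 columns in all) were not used.

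Tests were run within each table on genes whose mean FPKM was 0.5 or more, as log2(FPKM + 1), with limma 3.58.1 (lmFit and eBayes with trend, two-sided, R 4.3.3) without a block, 2 dox against 4 control libraries in BME and 3 against 3 on plastic. Adjustment was by Benjamini and Hochberg over every gene tested. The 7 genes were part of these fits and of the shares over all genes, and *Fcer2a* is among the genes called on plastic. Their p-values are not given, since this contrast chose them. The code was tested on simulated data. Low FPKM values were read as whole reads where the steps of a gene were whole multiples within 0.02. In BME the step of *Sele* was scaled from the plastic table. Such read numbers cover counting error only.

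The 7 genes, the lists, the motifs and the tests were chosen with earlier results of these data known. Named genes are the 7 and *Smad4*, list genes that were called, changed by over 1 the same way in every pair or had the highest mean of their list, the 5 genes most like the 7, and the 1 gene most like each. Neighbours come from the RefSeq gene table of the mouse, used for gene order only. Protein features were planned and not computed, and a few listed genes are not reported here. Alternatives were another pseudocount, no filter, the line as a block, rescaled or median-centred values, the mock library left out or counted with dox, and each library left out in turn.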

Additional observations from a re-analysis of the deposited data

Results flagged for a closer look

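Each of 67 genes named here or in the lists was examined in the 4 BME control libraries for a library far from the others, by the gap to its nearest neighbour over the whole range. The cutoff would set apart about 1 in 20, or 3.35 genes, by chance if the 4 values were normally distributed, and 9 were set apart. FPKM values near 0 are not so distributed, and a gene with a single control above 0 is set apart by construction. The 9 are therefore not compared with chance. *Fcer2a* stood at 6.61 FPKM in the mock library of line 682, against 0.670 FPKM in the next highest control. *Gfap*, an astrocyte filament gene, stood at 1.92 FPKM in the same library, against 0.0522 FPKM in the next. *Tigit* stood at 27.0 FPKM in the untreated library of line 700, against 3.30 FPKM in the next. *C430042M11Rik*, the gene most like *Havcr2*, was lowest in the untreated library of line 889 at 2.77 FPKM, against 3.16 FPKM in the next lowest. *Tek* stood at 1.54 FPKM and *Prdm8* at 0.199 FPKM in the untreated library of line 889, against 0.0597 and 0.0666 FPKM in the next. *Cdh5* (0.0169 FPKM) and *Selp* (0.0198 FPKM) in the untreated library of line 700, and *Apela* (0.0779 FPKM) in that of line 682, were the only controls above 0. Of 75 genes examined, 4 lay on one side of 0 in both BME dox pairs and on the other in all 3 plastic pairs, as did 4.87% of the 11977 genes tested in both tables. The mean change was -0.82 in BME and 1.37 on plastic for *Cd44*, 0.12 and -0.80 for *Apln*, 0.073 and -0.06 for *Timd2*, and 0.081 and -0.08 for *Antxr1*. These differences between environments were not tested.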

How the results depend on the processing

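The number of genes called over the whole table was small and moved with most choices. In BME 3 genes were called, 1 with a pseudocount of 0.1, 0 with the mock library counted with dox, and 0 to 37 when each library was left out (37 without the dox library of line 700, 0 without any other single library). On plastic 4 were called, 10 with a pseudocount of 0.1, 0 without a filter on low values, 11 with values rescaled to a fixed total, and 0 to 55 when each library was left out (55 without the dox library of line 700, 2 without that of line 889, 0 without any other single library). Leaving out a BME dox library leaves 1 dox library, which is then assumed to vary like the controls. With the line as a replicate block, in which libraries were paired, 0 were called in BME and 7 on plastic, and 0 list genes in either. The list genes called stayed at 0 under all 4 alternatives run for them. The count of the 7 genes whose BME dox libraries all lay above the controls was 4. It was 5 without the mock library and 7 without the dox library of line 700, the only libraries left out for this BME count. Leaving a library out cannot lower such a count. The mean BME change of *Pcp4*, 4.45, was -0.34 without line 889 and 9.24 without line 700. The median of the 7 mean changes was 0.16 without line 889 and 4.18 without line 700 in BME (2.31 with both), and 3.74 to 7.07 with a line left out on plastic (5.25 with all 3). For single genes, with no line left out, 45 alternative values of the mean change stayed within 1 SD between lines and 11 moved further, all upward. With 2 or 3 lines, leaving one out cannot move a mean by 1 SD, so those values say nothing about stability. The order against *Smad4* was the same with rescaled values (13 of 21 on plastic, 7 of 7 in BME). A smaller pseudocount raised the mean changes of the 7 genes, with *Pcp4* in BME as the exception. For *Sele* on plastic the mean change went from 5.71 to 8.25 (0.1) and 9.76 (0.01). The mean BME change of *Pcp4* was instead below 4.45 with a pseudocount of 0.1, and lower still with 0.01. The pseudocount of 0.01 and the counts without the mock or the line 700 dox library were chosen after seeing the data. The cause of these movements was not tested. With 1 library per line, treatment and environment, and 0 to 4 reads behind several control values, the size of a change from a near-zero level is poorly set.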
